A study of Homo sapiens and Mus musculus with 30 samples.

Results

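Small RNA from HEK293A cells transfected with mature let-7a was compared with small RNA from the same cells labelled wt, in 4 let-7-transfected and 4 wt libraries, which are 8 of the 30 samples of the series. The libraries were taken by their labels: each let-7 library was paired with the wt library of the same LIN28B state and the same RNA fraction. HEK293A is an adherent human embryonic kidney line. The LIN28B states were KO, in which LIN28B is knocked out, and X3, in which a LIN28B transgene was induced to the second highest of its expression levels. The fractions were total small RNA and small RNA precipitated with an antibody against AGO2. Per the labels, a lipid reagent carried let-7a into the cells at 10 nM and the transgenes were induced with doxycycline at 10 ng/ml. The labels do not define wt beyond the absence of let-7, and do not say whether wt cells received a control RNA or the reagent. Each combination of state, transfection and fraction was a single library. The 4 pairs therefore supply the spread, and the total and AGO2 libraries of one state may come from one culture, so they may hold as few as 2 transfections. The p-values measure the spread between these libraries, which may be technical.

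Let-7 is a family of microRNAs that share one seed, the stretch near the 5′ end that pairs with target messenger RNAs. Mature let-7 loaded into Argonaute proteins such as AGO2 lowers the output of its targets, and LIN28B binds let-7 precursors and blocks their processing. A mature let-7 duplex enters below that block, and the series design names the presence or absence of transfected let-7a among the conditions under which AGO2-bound RNA was examined.

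The counts were deposited per Ensembl gene, so a mature microRNA appears only as the gene feature its reads were assigned to. The mature sequences below, from RefSeq (GRCh38.p14), are the let-7 members that the transfection and the counts concern, with the seed (bases 2 to 8) in capitals, 5′ to 3′. Their seeds are the same. Over its 22 bases let-7e differs from let-7a at 1 base and miR-98 at 2.
hsa-let-7a-5p: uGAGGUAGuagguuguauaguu
hsa-let-7e-5p: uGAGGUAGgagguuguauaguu
hsa-miR-98-5p: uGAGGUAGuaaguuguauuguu

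The next set is shown because features that lie across these microRNAs on the other strand hold many of the counts. The seeds are again in capitals. Over the 23 bases of hsa-miR-423-5p, the mature hsa-miR-3184-3p of the opposite strand is its exact complement. The longest exact complement is 20 bases between hsa-miR-24-3p and hsa-miR-3074-5p.
hsa-miR-99b-5p: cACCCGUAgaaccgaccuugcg
hsa-miR-125a-5p: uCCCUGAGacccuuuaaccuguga
hsa-miR-423-5p: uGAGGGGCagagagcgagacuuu
hsa-miR-3184-3p: aAAGUCUCgcucucugccccuca
hsa-miR-24-3p: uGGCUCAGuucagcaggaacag
hsa-miR-3074-5p: gUUCCUGCugaacugagccag

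The let-7 libraries held fewer counts than their wt partners in all 4 pairs. In total small RNA the KO libraries held 73083 counts with let-7 and 125904 in wt, and the X3 libraries 86951 with let-7 and 150841 in wt. In AGO2-bound RNA the KO libraries held 140139 counts with let-7 and 157595 in wt, and the X3 libraries 95887 with let-7 and 172995 in wt. Depth thus moved with transfection, and its part in the results was not tested. Of the 57820 features listed, 5267 had any count, and 115 passed the filter on low counts. Intervals below are exact binomial (Clopper-Pearson) at 95% and cover counting error only.

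Counts on let-7 features appeared in all 4 let-7 libraries and in no wt library, at a very low level. The family had 4 counts in let-7 KO total RNA and 2 in let-7 X3 total RNA. In AGO2-bound RNA it had 5 counts in the let-7 KO library and 3 in the let-7 X3 library. The 4 wt libraries had 0, 0, 0 and 0. The groups did not overlap, although single values rest on 5 counts or fewer.

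Together the let-7 libraries held 14 let-7 family counts of 396060, or 35.3 CPM, the usual scaling of a count by its library total (interval 19.3 to 59.3). The wt libraries held 0 of 607335, which allows up to 4.94 CPM at 3 counts over the group. Against that limit the family was at least 7.16-fold higher with let-7 at its counted level, a ratio that does not take in the counting error of the 14 counts. The mean difference within pairs was 36.2 CPM, higher with let-7 in 4 of 4 pairs (exact permutation of labels within pairs, two-sided p = 0.125, the smallest that 4 pairs can give).

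Within the family, MIRLET7A1, one of the hairpin genes from which let-7a is made, carried 11 of the 14 counts. It had 4 counts in the let-7 KO total library, 0 in the let-7 X3 total library, 4 in the let-7 KO AGO2 library and 3 in the let-7 X3 AGO2 library, against 0 in each wt library. MIRLET7A2, a second let-7a hairpin gene, had 1 count in the let-7 X3 total library and 1 in the let-7 KO AGO2 library. MIR98, whose product shares the let-7 seed, had 1 count in the let-7 X3 total library. The other 9 of the 12 family features were at 0 in all 8 libraries. No family feature passed the filter on low counts, so none was tested singly.

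**Figure D1:**
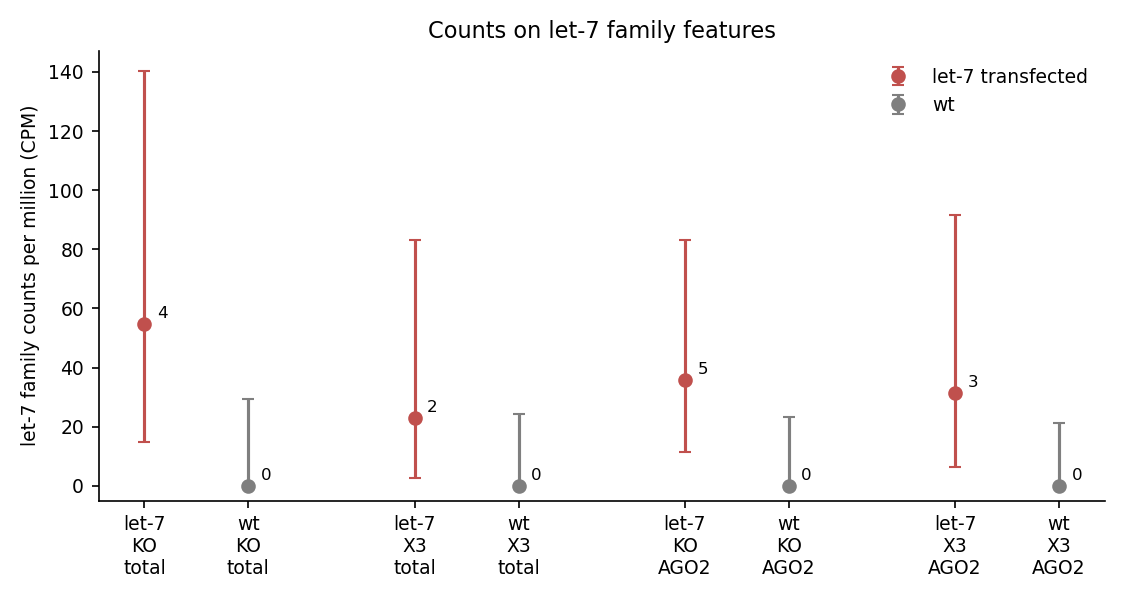
Counts on the 12 let-7 family features, in CPM (y axis), in each library (x axis, by transfection, LIN28B state and fraction). Points are single libraries, bars are exact 95% binomial intervals and the number beside a point is the count; the 4 let-7 libraries hold 2 to 5 counts each and the 4 wt libraries 0.

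Across these libraries, 10 features had counts in at least 3 let-7 libraries and in no wt library, and MIRLET7A1 was the second of them by counts. The deeper wt libraries held 41 features with counts in at least 3 of them and in no let-7 library, of which 1 had more counts than MIRLET7A1, 15 against 11. The first was SCN10A, which encodes a voltage-gated sodium channel known from sensory neurons. It was chosen for description after its values were seen. SCN10A had 17 counts in let-7 KO total RNA and 10 in let-7 X3 total RNA, against 0 and 0 in wt total RNA. In AGO2-bound RNA it had 0 counts in the let-7 KO library and 1 in the let-7 X3 library, against 0 and 0 in wt. The signal lay almost wholly in total small RNA, at 169 CPM over both let-7 libraries, against a limit of 10.8 CPM in wt at 3 counts over both libraries, so against that limit it was at least 15.6-fold higher with let-7 at its counted level.

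The gene features of let-7 and of most other familiar microRNAs had few or no counts. Of the 3 leading features, 2 face microRNA hairpins, and the other, MIR486, had no RefSeq match and was not checked. Among 1392 features named as microRNAs, a set without the hsa-mir-125a feature described below, 97 had any count. The 28 family and marker lists, of 120 features in the table, had 15 members with counts, which held 87 counts with let-7 and 136 in wt. Features of the miR-17, miR-25, miR-15, miR-10, miR-30, miR-221 and miR-21 lists, which include microRNAs common in many cells, were at 0 in all 8 libraries. MIR24-2, from the miR-23, miR-24 and miR-27 list, whose identifier now names the host gene MIR23AHG, had a mean of 10.5 counts per library. MIR183 of the miR-183 cluster, known from sensory organs, had a mean of 8.88.

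Lists of microRNAs that mark other cells had 6 of 28 features with counts, 8 counts in all with let-7 and 17 in wt. MIR9-1, a neuronal microRNA gene, held 5 of these with let-7 and 13 in wt. The blood markers MIR142, MIR144 and MIR223, the liver marker MIR122 and the muscle marker MIR206 were at 0 in every library. The blood marker MIR150 had 0 counts with let-7 and 2 in wt, and the muscle markers MIR133A1 and MIR499A had 0 with let-7 and 1 each in wt. MIR486, whose product is known from red blood cells and muscle, was by contrast one of the most abundant features, and its values follow below. Their part in the results was not tested.

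The feature the table calls hsa-mir-125a held 508812 counts, more than any other. Its identifier now names SPACA6-AS1, which by RefSeq lies opposite the hairpins of MIR99B, MIRLET7E and MIR125A, and the features of those 3 hairpins were at 0 in all libraries. MIR3184, with 163895 counts, faces MIR423, whose own feature was also at 0; the identifier of the MIR3184 feature now names hsa-mir-423, so which of the 2 hairpins its counts stand for cannot be told apart. MIR3074, with 1216 counts, faces MIR24-1, for which the counts hold no feature of that name. By RefSeq, 30 of 1080 matched hairpin features overlap a hairpin of the other strand. They held 165229 counts, of which MIR3184 held 163895 and the other 29 held 1334, against 819 on the other 1050. These matches leave out MIR486, which had 221367 counts.

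Among the let-7 hairpins, MIRLET7E and MIRLET7D have, by RefSeq, a gene of the table on the other strand: the hsa-mir-125a feature for MIRLET7E, and LINC02603, at 0 in all libraries, for MIRLET7D. The 3 let-7a hairpins have none, and their same-strand hosts MIRLET7A1HG, MIR100HG and MIRLET7BHG were at 0. Neither labels nor headers say how the counting treated strand, so reads of a gene and its antisense partner cannot be told apart. The low let-7 counts are therefore counts on the let-7 gene features, not the amount of let-7a in the cells.

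The let-7 and wt libraries were alike in their leading feature. The hsa-mir-125a feature, which spans let-7e, made up 45.8% of let-7 KO total RNA and 45.6% of let-7 X3 total RNA, against 46.8% and 43.4% in wt KO and X3. In AGO2-bound RNA it made up 56.3% of the let-7 KO library and 57.9% of the let-7 X3 library, against 50.8% and 56.0% in wt KO and X3. Its share was higher with let-7 in 3 of 4 pairs and the ranges of both groups overlapped. The fitted log2 fold change over 4 pairs was −0.35 ± 0.28 (SE) with TMM scaling and 0.06 ± 0.07 with library totals, so its direction turned with the scaling (edgeR quasi-likelihood, Benjamini-Hochberg adjusted p = 0.538 and 0.634).

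The microRNA-named features as a group, which leave out hsa-mir-125a, took a smaller share of every let-7 library than of its wt partner. They made up 28.0% of let-7 KO total RNA and 28.7% of let-7 X3 total RNA, against 33.7% and 35.8% in wt KO and X3. In AGO2-bound RNA the shares were 42.2% and 40.2% with let-7 in KO and X3, against 47.7% and 42.2% in wt. The mean difference was −5.08 percentage points, lower with let-7 in 4 of 4 pairs (exact permutation within pairs, two-sided p = 0.125, the smallest possible). MIR486 and MIR3184 held 99.4% of these counts, so the group's share is in effect theirs. The fall in 4 of 4 pairs holds only without hsa-mir-125a. Together, hsa-mir-125a, MIR486 and MIR3184 were higher in share with let-7 in 1 of 4 pairs (exact permutation within pairs, two-sided p = 0.25).

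MIR3184 made up most of the difference of the microRNA-named group in total small RNA. It made up 17.2% of let-7 KO total RNA (16.9 to 17.4%) and 19.2% of let-7 X3 total RNA (18.9 to 19.5%), against 21.5% (21.2 to 21.7%) in wt KO and 27.0% (26.8 to 27.3%) in wt X3. Both let-7 libraries lay below both wt libraries, at 0.800 and 0.710 of their partners. In AGO2-bound RNA the shares were 11.3% and 12.4% with let-7 in KO and X3, against 10.9% and 12.6% in wt, which is 1.03 and 0.985 of their partners. Measured against library totals, MIR3184 was lower with let-7 in total RNA by a log2 fold change of −0.41 ± 0.09 (SE; edgeR quasi-likelihood, adjusted p = 0.000181). With TMM scaling the change was −0.62 ± 0.51 (adjusted p = 0.57) and did not pass. It passed in the total libraries alone (adjusted p = 0.0203), at a mean of at least 50 counts (0.0302), with no filter on low counts (0.000871) and with DESeq2 (0.002), and was lower with let-7 in each. In edgeR it did not pass with RLE factors (adjusted p = 0.0506) or with microRNA features only (0.784). Nor did it pass with TMM without each AGO2 library in turn. Leaving out each of all the libraries in turn gave log2 fold changes of −0.55 to −0.13.

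MIR486 was lower in share with let-7 in 3 of 4 pairs. It made up 30.7% and 27.5% of the let-7 KO and X3 AGO2 libraries, against 36.5% and 29.4% in wt KO and X3. In total RNA it made up 10.5% and 9.22% with let-7 in KO and X3, against 11.9% and 8.48% in wt, so the let-7 library was higher in X3 and lower in KO. The log2 fold change over 4 pairs was −0.51 ± 0.29 with TMM scaling and −0.10 ± 0.09 with library totals (edgeR quasi-likelihood, adjusted p = 0.396 and 0.472).

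The less abundant microRNA features carried few counts. MIR3074 had 107 and 130 counts in let-7 KO and X3 total RNA, against 287 and 214 in wt, and 113 and 84 in let-7 KO and X3 AGO2 libraries, against 138 and 143 in wt. Its share stood at 0.642 of wt in KO total RNA and 1.05 in X3 total RNA, so the 2 states went opposite ways. MIR3615, whose identifier now names SLC9A3R1-AS1, was higher in share with let-7 in 4 of 4 pairs, with the largest ratio in KO total RNA, 1.59 times wt, on 12 counts with let-7 and 13 in wt. Its log2 fold change over 4 pairs was 0.23 with library totals and −0.19 with TMM, so its direction turned with the scaling. MIR3158-1, which lies across MIR3158-2 on the other strand so that their reads may be shared, had 11 and 16 counts in let-7 KO and X3 total RNA, against 12 and 5 in wt. Its 9 counts in the let-7 X3 AGO2 library stood against 3 in wt, and its 6 in the let-7 KO AGO2 library against 8. MIR625 had 30 counts in the wt X3 AGO2 library and 4 to 11 in each of the others. MIR942 and MIR2115 were higher in share with let-7 in 2 of 4 pairs each.

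**Figure D2:**
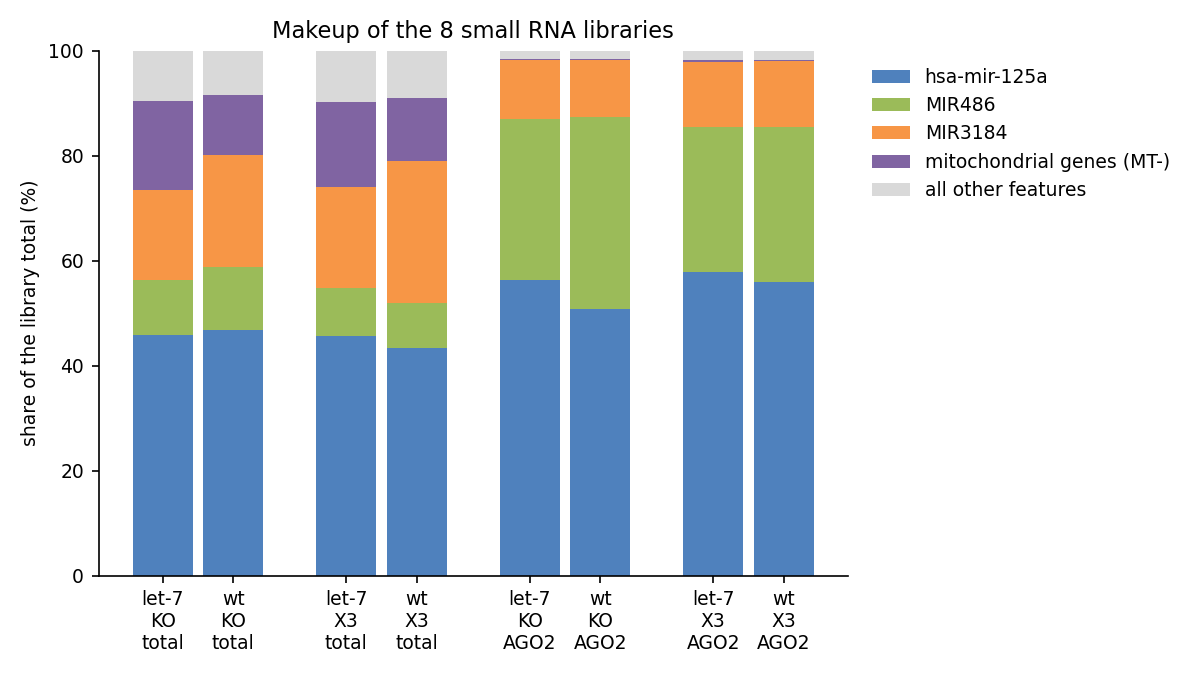
Share of each library's total in percent (y axis, stacked) held by hsa-mir-125a, MIR486, MIR3184, the mitochondrial genes and all other features, in each library (x axis, let-7 left of its wt partner). Mitochondrial genes take 16.3 to 16.9% of the let-7 total libraries and 11.3 to 12.1% of the wt total libraries, and 0.201 to 0.313% of the AGO2 libraries.

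RNA of the mitochondrial genome took a larger share of every let-7 library than of its wt partner, and most of that difference lay in total small RNA. The 34 mitochondrial features with counts made up 16.9% of let-7 KO total RNA and 16.3% of let-7 X3 total RNA, against 11.3% and 12.1% in wt KO and X3. The binomial intervals of the let-7 libraries did not reach those of wt. The let-7 shares were 1.50 and 1.34 times those of wt in KO and X3, and both let-7 libraries lay above both wt libraries. This separation of 2 against 2 libraries, also given for MIR3184, MT-TQ and CTD-2328D6.1, was not counted over all features. All features outside the leading hsa-mir-125a, MIR486 and MIR3184 stood at 1.34 and 1.23 times wt in KO and X3 total RNA. Those 3 together stood at 0.917 and 0.938 of wt. Shares of a library are bound to each other, so the MIR3184 fall and the mitochondrial rise are not separate results. In AGO2-bound RNA the mitochondrial shares were 0.223% and 0.313% with let-7 in KO and X3, against 0.201% and 0.283% in wt, where the groups overlapped. Over 4 pairs the mean difference was 2.46 percentage points, higher in 4 of 4 (exact permutation within pairs, two-sided p = 0.125, the smallest possible).

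The mitochondrial genome encodes respiratory chain subunits, transfer RNAs and ribosomal RNAs, and its long transcripts are cut into single RNAs at the transfer RNAs. Among the 21 mitochondrial features with a mean of at least 10 counts, 17 had a higher share with let-7 in KO total RNA and 21 in X3 total RNA. In each of the 2 AGO2 pairs 13 of 21 did. The share of all features higher in each pair was not counted, so these counts do not set the mitochondrial features apart. MT-TQ, the mitochondrial transfer RNA for glutamine, had 98 and 160 counts in let-7 KO and X3 total RNA, against 74 and 106 in wt. As shares of the total these were 0.134% and 0.184% with let-7, against 0.0588% and 0.0703% in wt, or 2.28 and 2.62 times wt. Both let-7 values lay above both wt values.

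MT-CYB, the cytochrome b subunit of complex III, made up 2.04% and 1.71% of let-7 KO and X3 total RNA, against 1.31% and 1.43% in wt. MT-ND5, a complex I subunit and the most abundant mitochondrial feature, made up 5.65% and 4.97% with let-7, against 4.05% and 4.25% in wt. In AGO2-bound RNA it went the other way, at 0.779 of wt in KO and 0.902 in X3. MT-ND6, another complex I subunit, stood at 1.44 and 2.14 times wt in KO and X3 total RNA. MT-ATP6, a subunit of ATP synthase, stood at 2.10 and 1.54 times wt. MT-TE, the mitochondrial transfer RNA for glutamate, stood at 1.75 and 1.52 times wt. Nuclear copies of mitochondrial genes, 30 features that can share reads with them, made up 2.44% and 2.37% of let-7 KO and X3 total RNA, against 1.55% and 1.66% in wt.

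**Figure D3:**
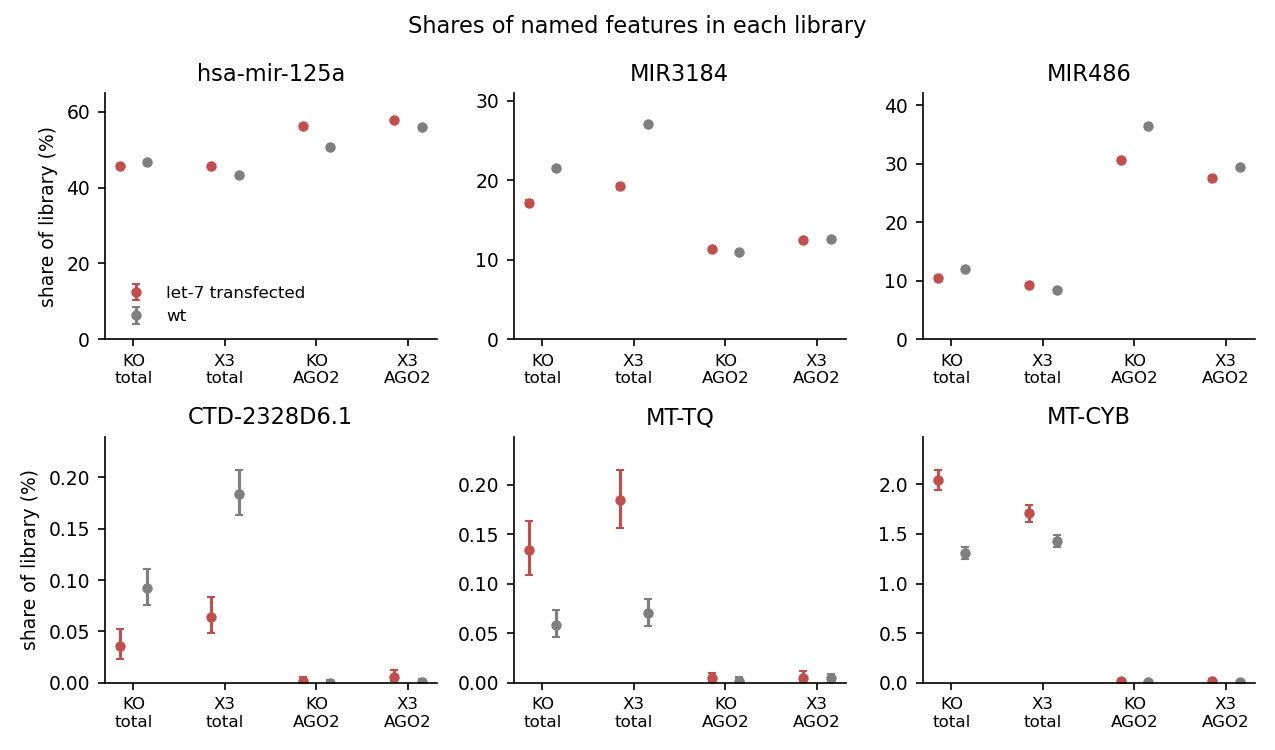
Share of the library total in percent (y axes, which differ between panels) for 6 features in the 4 pairs of LIN28B state and fraction (x axes), with let-7 at the left of each pair. Points are single libraries and bars exact 95% binomial intervals; in total RNA MIR3184 and CTD-2328D6.1 are lower and MT-TQ and MT-CYB higher in both let-7 libraries.

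Tests across all 115 features depended on the scaling, so both are given. TMM scaling aims to bring the typical feature of each library to the same level, while library totals read each count as a share of its library. A larger TMM factor lowers the scaled level of a library. The factors ran from 0.232 to 3.26, and within the X3 AGO2 pair they were 0.525 with let-7 and 0.232 in wt. Over 4 pairs with TMM, 1 feature passed an adjusted p of 0.05 (0.87% of those tested) and 13 had an unadjusted p under 0.05. It was SCN10A, higher with let-7 (adjusted p = 0.0109, edgeR quasi-likelihood, Benjamini-Hochberg). SCN10A passed the low-count filter through its let-7 counts alone, so it had to differ between the groups and its p is no support. Of 8 fits that each left out 1 library, the fit without the wt X3 AGO2 library was the 1 that still called it. DESeq2 also called 1 feature, MIR3184, which was lower. With library totals 19 passed (16.5%), 18 higher with let-7 (15.7%) and 1 lower (0.87%). The median log2 fold change of all tested features was −0.17 with TMM and 0.16 with library totals. No tested feature had shares in the 4 let-7 libraries that all lay above or all below those in the 4 wt libraries (0.0% each way). The share was higher in 4 of 4 pairs for 16 features (13.9%) and lower for 4 (3.48%).

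In total small RNA, 2 of 115 features passed with TMM (1.74%), with 12 at an unadjusted p under 0.05. SCN10A was called higher (adjusted p = 9.24e-05), again having entered the test through its let-7 counts alone, and CTD-2328D6.1 fell by 1.66 ± 0.39 on the log2 scale (SE; adjusted p = 0.00166; edgeR quasi-likelihood, Benjamini-Hochberg). Of 8 fits that each left out 1 library, 0 still called SCN10A and 1, that without the let-7 KO total library, still called CTD-2328D6.1. The total libraries alone gave 3 calls, CTD-2328D6.1, MIR3184 and TSIX, and not SCN10A. With library totals 26 passed (22.6%), 23 higher with let-7 (20.0%) and 3 lower (2.61%). The 3 lower were CTD-2328D6.1, MIR3184 and TSIX, the antisense RNA of XIST, of which TSIX was named after its values were seen. DESeq2 called 15.

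CTD-2328D6.1, a feature with no current symbol in the tables used, had 26 and 56 counts in let-7 KO and X3 total RNA, against 116 and 278 in wt. As shares these were 0.0356% and 0.0644% with let-7, against 0.0921% and 0.184% in wt, or 0.386 and 0.349 of wt. Both let-7 libraries lay below both wt libraries. In AGO2-bound RNA it had 2 and 5 counts with let-7 in KO and X3, against 0 and 1 in wt. With library totals its log2 fold change in total RNA was −1.46 ± 0.24 (edgeR quasi-likelihood, adjusted p = 5.03e-07).

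Calls in the mitochondrial list varied with the scaling, the filter and the libraries. Of its 23 tested members, 13 passed as higher in total RNA with library totals and 0 as lower, against the 20.0% of all features called higher. With TMM 0 of 23 passed in either direction, against 0.87% of all features each way. Their median log2 fold change was 0.48 with library totals, beside 0.14 over all features, and 0.25 with TMM, beside −0.07 over all features. MT-TQ differed by 1.30 ± 0.22 with library totals (adjusted p = 5.94e-07) and by 1.08 ± 0.37 with TMM (adjusted p = 0.136), both from edgeR's quasi-likelihood test. MT-CYB differed by 0.45 ± 0.15 with library totals (adjusted p = 0.0167) and by 0.24 ± 0.39 with TMM (adjusted p = 0.817). In total RNA 7 of 23 members passed as higher with RLE factors, beside 13 of all 115 features. DESeq2 gave an adjusted p to 48 features, and the number of members among them was not counted. With it 8 members passed as higher, beside 13 of those 48. With TMM at a mean of at least 50 counts 3 of 16 did, beside 6 of all 34, a like share. With no filter 1 of 34 did, beside 3 of all 5267. In the total libraries alone 0 of 23 did, beside 0 of all 92. With TMM, some members passed without the let-7 KO total library or without the wt KO total library, fits that leave 1 pair of total libraries. None passed without each other library in turn. Over 4 pairs 8 of 23 members passed as higher with library totals, against 15.7% of all features, and 0 with TMM, against 0.87%.

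**Figure D4:**
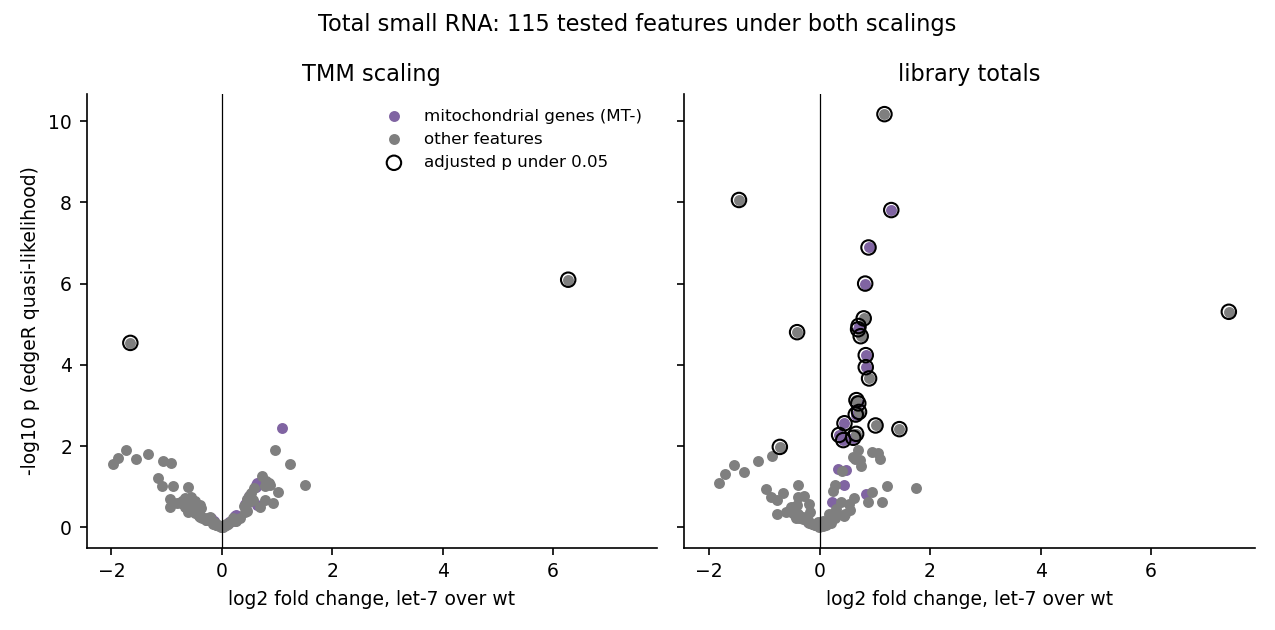
Log2 fold change in total small RNA, let-7 over wt (x axis), against −log10 of the unadjusted p (y axis), for 115 features under TMM scaling at the left and library totals at the right. Mitochondrial genes are purple, and rings mark an adjusted p under 0.05, of which there are 2 with TMM and 26 with library totals.

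The 11 tested microRNA-named features held 0 calls with TMM in total RNA and in the 4 pairs, against 1.74% and 0.87% of all features. With library totals MIR3158-1 passed as higher and MIR3184 as lower in total RNA, and MIR3158-1 alone over 4 pairs (log2 fold change 1.25 ± 0.37, adjusted p = 0.0117), beside 22.6% and 16.5% of all features called. The named features of smallest p that did not pass over 4 pairs with TMM included SHF, an adaptor protein gene, and FSD2, a gene for a protein with fibronectin type III and SPRY domains. SHF had 81 and 125 counts in let-7 KO and X3 total RNA, against 90 and 126 in wt, which are shares of 1.55 and 1.72 times wt. With library totals SHF passed as higher in total RNA (adjusted p = 0.00979) and over 4 pairs (adjusted p = 0.0252, edgeR quasi-likelihood). FSD2 was lower in share in 4 of 4 pairs, at 0.743 to 0.934 of wt, with a log2 fold change of −0.62 ± 0.35 with TMM and −0.22 ± 0.19 with library totals (edgeR quasi-likelihood, adjusted p = 0.396 and 0.472).

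In AGO2-bound small RNA no feature passed with TMM (0.0%), with 7 at an unadjusted p under 0.05, and none with library totals, with 6. At a mean of at least 50 counts 16 of 34 passed with TMM, all lower with let-7, where the median log2 fold change was −0.89. DESeq2 called 4, all lower with let-7: FSD2, MIR3184, MIR486 and MT-ND5. The feature of smallest p with TMM was MIR625, with 7 and 4 counts in the let-7 KO and X3 AGO2 libraries, against 11 and 30 in wt. The 3 leading features held 98.3% and 97.8% of the let-7 KO and X3 AGO2 libraries, against 98.2% and 98.0% in wt, which leaves few counts for all others.

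No feature's let-7 effect differed between the fractions with TMM (0.0% of 115, 8 at an unadjusted p under 0.05). With library totals 1 did (0.87%): CTD-2328D6.1, whose effect was higher in AGO2-bound than in total RNA by a log2 difference of 4.60 ± 1.19 (edgeR quasi-likelihood, adjusted p = 0.0162). That value rests on 0 to 5 counts in each AGO2 library. DESeq2 called 9 features. Between X3 and KO cells no feature's let-7 effect differed with TMM (0.0%, 0 at an unadjusted p under 0.05), with library totals (0.0%, 1 at an unadjusted p under 0.05) or with DESeq2.

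The small RNA table cannot show the LIN28B messenger RNA. In total RNA of other libraries of the series, LIN28B stood at 3.60 RPKM in X0, the knockout, and 81.2 RPKM in X3. HMGA2, a chromatin protein gene and a known let-7 target, stood at 0.737 RPKM in X0 cells with let-7a, against 5.87 RPKM in X0 cells without, from single libraries in tables normalized separately.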

How the data were processed

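The deposited table holds raw counts per Ensembl gene for the 8 small RNA libraries, made by the authors. Per the file headers, reads were trimmed of polyA and adapters, and those that a first alignment left unmapped went on to bowtie. The submitters' processing notes list the tools cutadapt and STAR and, for human, the build hg19. Neither the counting tool nor its strand setting is stated in the labels or headers. Deposited RPKM values of 3 other libraries gave LIN28B and HMGA2 only.

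All 57820 identifiers were paired with symbols through a deposited table. RefSeq (GRCh38.p14) gave sequences, names and the positions from which overlaps were found. The counts were tested with edgeR 4.0.16 (quasi-likelihood, TMM, filterByExpr, a term for each pair, Benjamini-Hochberg, threshold 0.05), and fraction effects came from one fit over 8 libraries. DESeq2 1.42.0 and library totals were alternatives. The TMM fits were also run on simulated counts of a fixed spread, with no difference in makeup within pairs beyond the changes put in. Those runs cannot vouch for calls that turn on the scaling. Exact permutations took differences in share, since log2 ratios fail at 0. Each SE is the size of the log2 fold change over the square root of its quasi-likelihood F, not a separate estimate. Named features were the let-7 family, the 10 microRNA features of highest share, the 5 of smallest p in each direction at a mean of at least 50 counts, features past a difference test, and the 2 most abundant of each list at a mean of at least 10 counts. hsa-mir-125a, SCN10A and TSIX were chosen after their values were seen. The members, lists and tests were chosen with earlier results of these data known. Depths were 73083 to 172995 counts per library, so a feature at 0 in 1 library is limited only to 3 counts of its total.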

Additional observations from a re-analysis of the deposited data

How the results depend on the processing

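The count of features called was fragile. Over 4 pairs it was 1 with TMM, 19 with library totals, with or without the let-7 family, 2 at a mean of at least 50 counts, 2 with no filter, and 0 with RLE factors or microRNA features only (10 tested). Without the pairing (no replicate block) it was 1 with additive terms and 0 with let-7 alone. In total RNA it was 2 with TMM, 26 with library totals, 15 with DESeq2, 14 with RLE factors, 11 at a mean of at least 50 counts, 9 with no filter and 0 with microRNA features only; with the total libraries alone it was 3. In AGO2-bound RNA it was 0 with TMM, 4 with DESeq2 and 16 at a mean of at least 50 counts. For AGO2 minus total it was 0 with TMM, 9 with DESeq2, 8 at a mean of at least 50 counts, 5 with RLE factors and 1 with library totals. For X3 minus KO it was 0 with TMM and 1 with microRNA features only. Leaving out each library in turn gave 0 to 13 calls over 4 pairs (13 without the wt X3 AGO2 library), 0 to 11 in total RNA (11 without the wt KO total library, 10 without the let-7 KO total library), 0 to 6 in AGO2-bound RNA (6 without the let-7 KO total library), 0 to 10 for AGO2 minus total (10 without the let-7 KO total library, 6 without the wt KO total library) and 0 to 1 for X3 minus KO (1 without the let-7 X3 total library). A fit that left 1 library without a partner lost that pair. SCN10A, the 1 feature called over 4 pairs, was lost in each of these fits but that without the wt X3 AGO2 library. The log2 fold change of hsa-mir-125a over 4 pairs, −0.35 with TMM, was 0.0587 with library totals and 0.0588 with totals that left out the let-7 family. Leaving out 1 library gave −0.474 to 0.0693, with the reversed values without the wt KO total library and without the wt X3 AGO2 library. The cause was not tested. The differences in share of the let-7 family, the microRNA features and the mitochondrial features kept their direction under every other denominator tried. The denominators tried for the mitochondrial features were added after seeing the data. For the let-7 family the direction could not turn, since the wt libraries had 0 counts. Each of these differences went one way in 4 of 4 pairs, so leaving out a pair could not turn it either.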
